A study of Homo sapiens with 2 samples.

Results

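Ubiquitin-specific proteases (USPs) were examined in HGC27 cells, an established line from a human gastric cancer, with the long non-coding RNA LINC01133 overexpressed from a plasmid. The members were all protein-coding genes of GENCODE release 29 whose symbol is USP, a number and at most 1 further letter, without USP9Y and the near-identical USP17L copies, and 49 of the 28303 genes with values were members. The rule used names alone. Of the 51 genes the rule names in that annotation, USP26 and USP29 were not analysed here. The overexpression group was 1 library of cells transfected with pcDNA3.1-linc01133, and the control group was 1 library of cells transfected with the pcDNA3.1-control plasmid. Both were transfected with Turbofect, grown in the same serum-containing medium and harvested after 48 h. The transfection was transient, so each library averages over cells that took up different amounts of plasmid. Each group held 1 library, and no difference below has a replicate check, a p-value or an SD. In bulk RNA, fewer cells with a transcript and less of it per cell cannot be told apart.

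USPs form the largest family of deubiquitinases, the enzymes that take the small protein ubiquitin off other proteins. Most are cysteine proteases: a catalytic cysteine, held by a finger, palm and thumb fold, cuts the bond between ubiquitin and its target or between ubiquitins of a chain. In this way they spare proteins from the proteasome, and they also reverse ubiquitin signals on histones, DNA repair factors, receptors and organelles. Many act only with a partner, such as the WD-repeat protein WDR48 for USP1, USP12 and USP46.

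The values are FPKM, counted fragments scaled to merged exon length and to library depth. They rest on 16302581 counted fragments in the overexpression library and 15666629 in the control. LINC01133 had an FPKM of 1.44 in the overexpression library and 0.0809 in the control, from 74 and 4 fragments. Of the 5 epithelial markers with values, all were under an FPKM of 1 in both libraries (summed FPKM 0.994 and 0.999), with KRT18 listed at 0. The gastric markers TFF2 and MUC5AC were also listed at 0, MUC6 and CLDN18 were under 1 in both libraries, and CDX2 had 2.53 and 3.22. Of the mesenchymal markers, the filament gene VIM had 210.0 and 198.3, ZEB1 had 7.82 and 3.06 and FN1 had 3.62 and 3.50. CDH2, from the same list, was nearly absent, with 0.0744 and 0.0516. A listed 0 may come from the counting as well as from the RNA, so these values do not test the labelled origin.

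Because the transcripts' base composition turned out to follow the values, the coding sequence around the catalytic cysteine codon is shown for members that differ in it. Each line gives 60 bases of the coding strand from GENCODE transcripts on GRCh38, 9 codons before the cysteine codon, the cysteine codon itself in capitals, and 10 codons after it. USP12 and USP46 are shown as a pair that encodes the same 20 residues here, USP33 and USP20 as the pair with the widest gap in log2 ratio, USP15, USP4 and USP11 as a family of 3, and USP1 as the member with the highest ratio.
USP1: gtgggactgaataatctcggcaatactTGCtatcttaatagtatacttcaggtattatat
USP12: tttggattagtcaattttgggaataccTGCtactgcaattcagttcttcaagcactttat
USP46: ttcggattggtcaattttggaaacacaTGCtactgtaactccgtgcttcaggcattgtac
USP33: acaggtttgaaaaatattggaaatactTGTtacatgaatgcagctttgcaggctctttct
USP20: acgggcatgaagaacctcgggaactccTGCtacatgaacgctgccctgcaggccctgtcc
USP15: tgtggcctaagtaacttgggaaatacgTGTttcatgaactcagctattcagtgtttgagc
USP4: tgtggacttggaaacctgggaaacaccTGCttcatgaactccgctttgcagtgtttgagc
USP11: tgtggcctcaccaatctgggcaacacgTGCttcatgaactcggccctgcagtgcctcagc

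The cysteine codon of USP1 is codon 90, in exon 3, at chr1:62441585-62441587 on the plus strand. That of USP12 is codon 48, in exon 3, at chr13:27105930-27105932 on the minus strand, and that of USP46 is codon 44, in exon 3, at chr4:52628149-52628151 on the minus strand. USP12 and USP46 differ at 13 of the 60 bases while all 20 codons encode the same residues. USP20 and USP33 differ at 19 bases and encode the same residue at 17 of the 20 codons; G or C stands at the third position of 19 codons in USP20 and of 5 in USP33. The same third-position count was 10 in USP15, 13 in USP4 and 18 in USP11. Such a window was found in 36 members, and its GC content ran from 31.7% to 66.7%.

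Of the 49 members, 39 had an FPKM averaging 1 or more and were compared. Of these, 7 reached 2-fold upwards with overexpression and 0 downwards, on the scale of FPKM + 1, where an absolute log2 ratio of 1 is 2-fold. Over all 11945 genes past the same limit, 11.9% reached 2-fold upwards and 0.444% downwards, and over protein-coding genes 11.7% and 0.0484%. Here and in what follows, 2-fold refers to FPKM + 1 and the ratio to FPKM itself, overexpression over control. The 7 were USP1, USP12, USP16, USP34, USP15, USP45 and USP25. USP15 and USP45 had a control FPKM under 1 and passed the limit through the overexpression library alone, so the members' 17.9% is a description and is not read against the share over all genes. The ratio itself was 2 or more for 14 of the 39 members.

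The median log2 ratio of the 39 members was 0.52, with quartiles of -0.04 and 0.91 and a range of -0.63 to 1.96, against a median of 0.10 over all genes with quartiles of -0.28 and 0.63. It was above 0 for 27 members and below 0 for 12, and above 0 for 55.4% of all genes. The 95% exact interval of the ratio, which covers counting error only, lay above 1 for 26 members, below 1 for 9 and held 1 for 4 (USP31, USP30, USP36 and USP4). The same interval lay above 1 for 42.6% of all genes with whole fragments and below 1 for 32.2%, so at this depth most genes differed by more than counting error. With trimmed-mean (TMM) scaling, all log2 ratios of FPKM were 0.25 lower. USP10 and USP31 changed sign with it, and 3 members (USP1, USP12 and USP16) then reached 2-fold. Over all genes, 898 of 11907 then reached 2-fold upwards and 160 downwards.

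USP8, not at 2-fold, likewise passed through the overexpression library. The 10 members under the limit were USP2, USP6, USP27X, USP41, USP43, USP44, USP49, USP50, USP51 and USP53, and they are given with their groups below without a call.

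**Figure D1:**
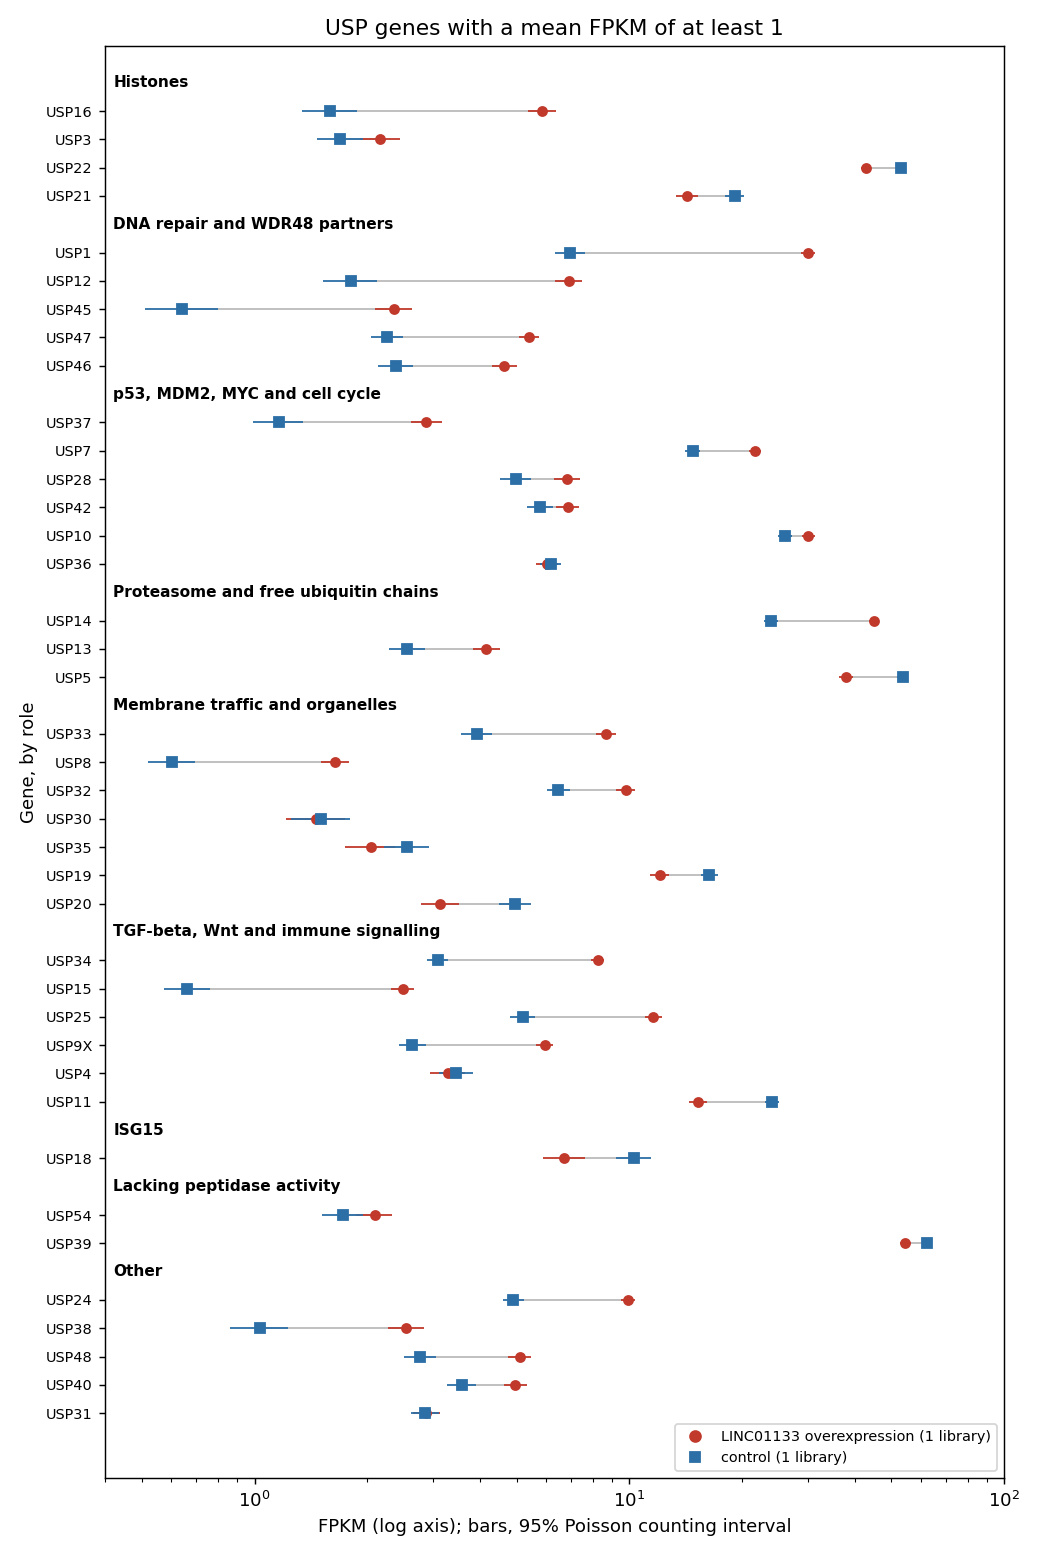
FPKM on a log axis of the 39 USP genes past the limit, by role, in the overexpression library (red circles) and the control (blue squares). Bars are 95% Poisson counting intervals and each point is 1 library. In the DNA repair group all 5 red points lie to the right of the blue ones, while USP11, USP5, USP22, USP19, USP20 and USP21 have their red points to the left.

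Among DNA repair enzymes and WDR48 partners, all 5 members had a log2 ratio above 0, 3 reached 2-fold and the median was 1.03. All 5 have AT-rich transcripts, with a GC content of 36.9% to 41.6%, and lie in the AT-richest of 4 equal bins of all genes, in which 41.5% of all genes reached 2-fold upwards. With the trends on GC content and length subtracted, as described below, the group's median was 0.31, with USP46 at -0.021 and USP45 at -0.053. The group's summed FPKM was 49.2 in the overexpression library and 14.0 in the control. USP1, which with WDR48 removes ubiquitin from the replication clamp PCNA and from the Fanconi anaemia protein FANCD2, had an FPKM of 29.9 in the overexpression library (95% counting interval 28.6 to 31.2) and 6.93 in the control (6.32 to 7.59), from 2078 and 463 fragments. Its ratio of 4.31 (3.90 to 4.78) and log2 ratio of 1.96 were the highest of the 39. Its level ranked 6 in the family in the overexpression library and 11 in the control. The gene (ENSG00000162607) lies at chr1:62436297-62451804 (GRCh38, plus strand) and shares no exon base with another gene.

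USP12 and USP46, both of which work with WDR48 and WDR20, were both higher. USP12 had an FPKM of 6.90 in the overexpression library and 1.81 in the control, a ratio of 3.82 (3.18 to 4.61). USP46 had 4.64 and 2.38, a ratio of 1.95 (1.70 to 2.22), under 2-fold. The order of this pair differed between the libraries: the level of USP12 was 1.49 times that of USP46 in the overexpression library and 0.758 times in the control. USP45, which acts on the repair nuclease subunit ERCC1, had an FPKM of 2.35 in the overexpression library and 0.642 in the control, a ratio of 3.67 (2.86 to 4.74), and USP47, which acts on DNA polymerase beta, had 5.40 and 2.26, a ratio of 2.39 (2.12 to 2.69). The shared partner WDR48 had an FPKM of 2.79 in the overexpression library and 1.79 in the control, a ratio of 1.56 (1.31 to 1.86), and WDR20 had 4.03 and 2.75, a ratio of 1.47 (1.27 to 1.69); neither reached 2-fold.

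Among the enzymes of TGF-beta, Wnt and immune signalling, 3 of 6 reached 2-fold, and the group's median log2 ratio was 0.98. The 3, USP34, USP15 and USP25, lie in the AT-richest of the 4 bins, in which 41.5% of all genes reached 2-fold upwards. With the trends subtracted, 0 of the 6 were at 2-fold and the group's median was 0.070, against 0.096 over all genes. USP34, which stabilises the Wnt scaffold axin, had an FPKM of 8.23 in the overexpression library and 3.08 in the control, a ratio of 2.68 (2.48 to 2.89); 18.0% of its exon bases are shared with another gene, so part of its count is uncertain. USP15, which acts on SMAD proteins, had 2.48 and 0.661, a ratio of 3.76 (3.21 to 4.41), and USP25, which acts on TRAF adaptors of innate immune receptors, had 11.6 and 5.19, a ratio of 2.23 (2.03 to 2.45). USP9X, an enzyme of SMAD4 and of the survival factor MCL1, was just under the 2-fold limit on FPKM + 1, with 5.94 and 2.64 and a ratio of 2.25 (2.04 to 2.49). The other members of the group were not higher. USP4 had 3.28 in the overexpression library and 3.45 in the control, a ratio of 0.9503 whose interval held 1 (0.818 to 1.10). USP11, with USP4 an enzyme of the TGF-beta receptor, had 15.2 and 24.1, a ratio of 0.632 (0.589 to 0.679), and its log2 ratio of -0.63 was the lowest of the 39.

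Of the 8 histone deubiquitinases, 4 passed the limit, 1 reached 2-fold and the median log2 ratio was -0.04. With the trends subtracted, 0 of the 4 were at 2-fold and the group's median was -0.029. USP16, a histone H2A deubiquitinase, had an FPKM of 5.85 in the overexpression library and 1.59 in the control, a ratio of 3.67 (3.05 to 4.45). USP3, which also acts on H2A, had 2.16 and 1.69, a ratio of 1.28 (1.06 to 1.54), and shares 22.7% of its exon bases with its antisense gene. USP21 had 14.3 and 19.1, a ratio of 0.747 (0.683 to 0.817). USP22, the H2B deubiquitinase of the SAGA coactivator, had 42.8 and 53.2, a ratio of 0.805 (0.775 to 0.837). The members of the group under the limit included 2 relatives of USP22 that use the same adaptors, ATXN7L3 and ENY2: USP51 had an FPKM of 0.724 in the overexpression library and 0.217 in the control (ratio 3.33, 1.85 to 6.37), and USP27X had 0.7498 and 0.707 (ratio 1.06, 0.621 to 1.82). USP49 had 0.955 and 0.579, and USP44, an enzyme of the mitotic checkpoint, had 0 fragments in both libraries. The adaptor ENY2 had 3.29 in the overexpression library and 1.76 in the control, and ATXN7L3 had 13.8 and 16.0. As deposited, the module's transcripts thus did not differ in 1 direction. The GC content was 38.6% for ENY2, 56.9% for ATXN7L3 and 53.3% for USP22. With the trends subtracted, their log2 ratios were -0.23, 0.17 and -0.10, in that order.

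None of the enzymes of p53, MDM2, MYC and the cell cycle reached 2-fold, and 5 of the 6 past the limit had a log2 ratio above 0, with a median of 0.30. Over all genes 55.4% were above 0. With the trends subtracted, 4 of the 6 were above 0, and the median was 0.22, against 0.096 over all genes. USP37 was then at -0.055, USP28 at -0.056 and USP36 at 0.29, each with its sign changed. USP7, which deubiquitinates both MDM2 and p53, had an FPKM of 21.6 in the overexpression library and 14.8 in the control, a ratio of 1.46 (1.38 to 1.55). USP37, an enzyme of cyclin A, had 2.87 and 1.16, a ratio of 2.47 (2.07 to 2.97), with 32.8% of its exon bases shared with other genes. USP28, which stabilises MYC, had 6.81 and 4.98, a ratio of 1.37 (1.21 to 1.55). The smallest differences in the group were those of USP10 (30.02 and 26.1, ratio 1.15, 1.09 to 1.22), an enzyme of p53 bound by G3BP1, USP42 (6.86 and 5.78, ratio 1.19, 1.07 to 1.32) and the nucleolar USP36 (6.04 and 6.17, ratio 0.978, 0.891 to 1.07). USP2 was under the limit, with 0.906 and 0.745. The USP10 partners G3BP2 (40.2 and 19.5, ratio 2.06, 1.96 to 2.17) and G3BP1 (26.2 and 14.3, ratio 1.84, 1.75 to 1.92) were both higher, G3BP2 at 2-fold.

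As deposited, the enzymes of the proteasome and of free ubiquitin chains went different ways. USP14, which sits on the proteasome and trims chains off its substrates, had an FPKM of 44.97 in the overexpression library and 23.9 in the control, a ratio of 1.88 (1.79 to 1.98), and was second in level in the family there. USP5, which takes apart free ubiquitin chains, had 37.9 and 53.6, a ratio of 0.707 (0.670 to 0.747), and was second in the control. Its paralogue USP13 had 4.16 and 2.56, a ratio of 1.63 (1.42 to 1.87). The USP5 level was thus 9.11 times that of USP13 in the overexpression library and 20.9 times in the control. The GC content was 38.1% for USP14, 57.7% for USP5 and 44.5% for USP13. With the trends subtracted, their log2 ratios were -0.076, -0.082 and 0.15, in that order.

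Among enzymes of membrane traffic and organelles, 7 of 8 passed the limit, 0 reached 2-fold and the median log2 ratio was -0.03. USP33 and USP20, paralogues that return the beta2 adrenergic receptor to the surface, stood at opposite ends: USP33 had an FPKM of 8.67 in the overexpression library and 3.92 in the control (ratio 2.21, 1.97 to 2.48), and USP20 had 3.13 and 4.96 (ratio 0.632, 0.542 to 0.736). USP8, which sorts receptors at endosomes with the STAM proteins, had 1.64 and 0.603, a ratio of 2.72 (2.31 to 3.22). Its partner STAM2 had 2.89 and 0.911 (ratio 3.17, 2.53 to 4.01), past 2-fold, and STAM had 12.9 and 8.12 (ratio 1.59, 1.40 to 1.80). USP32 had 9.78 and 6.47 (ratio 1.51, 1.38 to 1.65). USP30, the mitochondrial outer membrane enzyme that opposes parkin, had 1.46 and 1.504, with an interval of the ratio of 0.747 to 1.26 that held 1. USP35 had 2.04 and 2.55 (ratio 0.800, 0.650 to 0.983), and USP19, with a form anchored in the endoplasmic reticulum, had 12.1 and 16.3 (ratio 0.738, 0.682 to 0.798). The oncogene USP6 was covered by 9 fragments in the overexpression library and 1 in the control. It is in large part a copy of USP32, so its value is uncertain.

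USP18, which removes the ubiquitin-like protein ISG15 and restrains type I interferon signalling, had an FPKM of 6.71 in the overexpression library and 10.3 in the control, a ratio of 0.653 (0.550 to 0.773). Its near-identical copy USP41, a gene that RefSeq on GRCh38.p14 lists as a pseudogene, had 1 fragment in each library. Among members listed as lacking peptidase activity, USP39, a splicing factor and the most abundant member in both libraries, had 54.5 and 62.3, a ratio of 0.876 (0.836 to 0.917), and USP54 had 2.09 and 1.72, a ratio of 1.22 (1.03 to 1.44). USP53 was under the limit with 0.770 and 0.187 (ratio 4.12, 2.83 to 6.13), and USP50 had 1 fragment in the overexpression library and 0 in the control.

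The remaining members were all above 0 where they passed the limit, with a median of 0.69 over 5 and 0 at 2-fold. USP31 was so by only 0.006, and 55.4% of all genes were above 0. With the trends subtracted the group's median was 0.33, against 0.096 over all genes, and USP31 was at -0.32. USP24, a very large enzyme, had an FPKM of 9.92 in the overexpression library and 4.91 in the control (ratio 2.02, 1.87 to 2.19). USP38 had 2.54 and 1.03 (ratio 2.46, 1.99 to 3.04), and USP48 had 5.10 and 2.77 (ratio 1.84, 1.63 to 2.08). USP40 had 4.97 and 3.57 (ratio 1.39, 1.24 to 1.56). USP31 had 2.87 and 2.86, a ratio of 1.01 (0.892 to 1.13), and shares 23.0% of its exon bases with another gene. USP43, under the limit, had 0.533 and 0.630.

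The family's summed FPKM was 454 in the overexpression library and 396 in the control. In the overexpression library USP39, USP14, USP22 and USP5 led, followed by USP10 and USP1. In the control USP39, USP5, USP22 and USP10 led, followed by USP11. The 4 most abundant members held 39.6% of the sum in the overexpression library and 49.2% in the control, and the share of USP1 was 6.58% and 1.75%.

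The members' log2 ratios followed the GC content of their transcripts. Across the 39 members, which share the 2 libraries, the Spearman correlation with the GC content of the transcript was -0.909 and Pearson's r was -0.874; over all 11913 genes with a value they were -0.801 and -0.741. With the GC content of the coding sequence alone the members' values were -0.944 and -0.913. All genes past the limit were split by GC content into 4 bins of equal size, and the 7 members at 2-fold were among the 15 in the AT-richest bin, up to a GC content of 42.4%. There the members' median log2 ratio was 0.97 and 7 of 15 reached 2-fold upwards, against a median of 0.90 and 41.5% of all genes there. In the next bin, up to 49.0%, 0 of 11 members were at 2-fold and the median was 0.39, against 0.33 over all genes there. In the third bin 2 of 8 members were above 0, with a median of -0.12 against -0.14. In the GC-richest bin 0 of 5 were above 0, with a median of -0.41 against -0.37, the 5 being USP35, USP21, USP19, USP5 and USP20. The members as a whole were AT-richer than the background, with a median GC content of 45.3% against 49.0% over all genes past the limit. The part of base composition in the difference between these libraries, as opposed to that of LINC01133, cannot be told apart with 1 library per group.

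**Figure D2:**
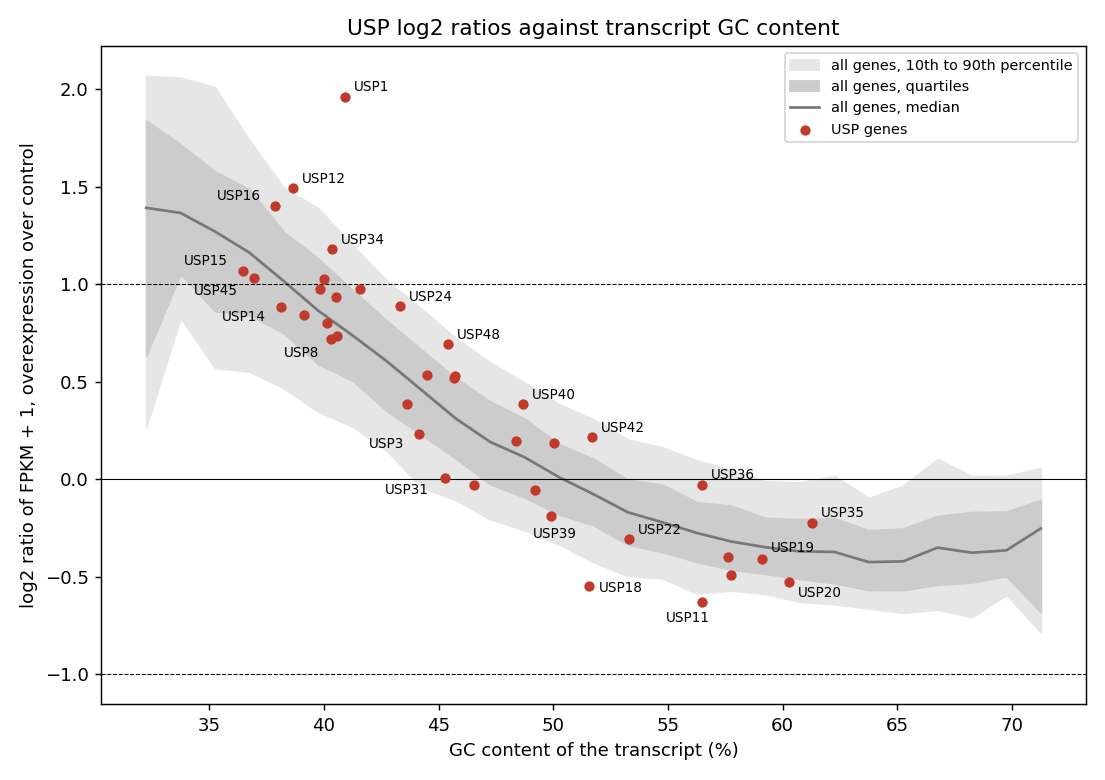
log2 ratio of FPKM + 1, overexpression over control, against the GC content of the transcript in percent, for the 39 USP genes past the limit (red points, a selection named) over the median, the quartiles and the 10th to 90th percentile of all genes in bands of GC content (grey). USP1 at 1.96 lies above the grey band, USP12 at 1.49 at its upper edge, and USP18 at -0.55 and USP11 at -0.63 below it.

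With the trends of the log2 ratio on GC content and length subtracted over all genes, keeping the overall median of 0.10, 1 member reached 2-fold upwards and 0 downwards, against 1.70% and 0.764% of all genes. The members' median was then 0.042, and 37 of the 39 lay within 0.5 of 0. USP1 was the member at 2-fold, with 1.28, at percentile 99.2 of all genes. It was followed by USP12 with 0.59, USP16 with 0.46, USP48 with 0.42 and USP34 with 0.39. USP15 and USP45, at 2-fold as deposited, were at -0.069 and -0.053. The lowest were USP18 with -0.33, USP31 with -0.32 and USP11 with -0.26. The coding sequence of USP1 is AT-richer than its whole transcript, 36.5% against 40.9%. With a trend on the GC content of the coding sequence in its place, fitted over protein-coding genes only, USP1 was at 0.63. That value was under 2-fold and at percentile 92.04 of those genes.

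**Figure D3:**
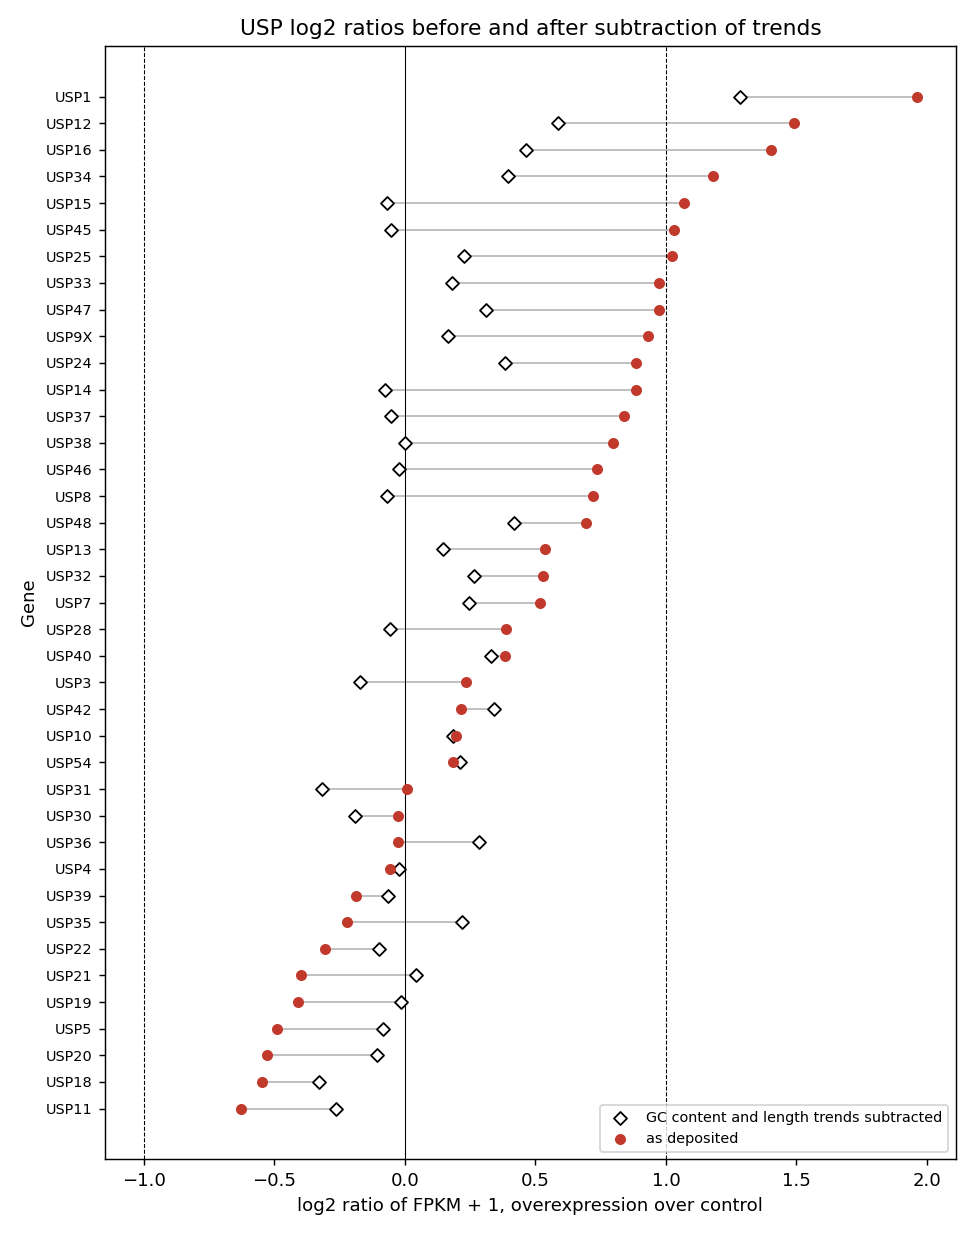
log2 ratio of FPKM + 1, overexpression over control, of the 39 USP genes as deposited (red circles) and with the GC content and length trends over all genes subtracted (open diamonds); dashed lines mark 2-fold. The circles span -0.63 to 1.96, and the diamonds other than those of USP1 at 1.28 and USP12 at 0.59 lie within 0.5 of 0.

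Paralogue pairs show the same values side by side for related genes. They are drawn from the same 39 members, and USP4 and USP24 stand in 2 pairs each, so the tally is a description and no separate check. Both members passed the limit in 11 of the 18 pairs listed, and in 10 of these 11 the member with the AT-richer transcript had the higher log2 ratio. The exception was USP16 and USP45, whose GC contents of 37.8% and 36.9% are close and whose log2 ratios were 1.40 and 1.03. USP20 and USP33, with GC contents of 60.3% and 39.8%, differed by -1.503 in log2 ratio, and by -0.28 with the trends subtracted. USP4 and USP15 (49.2% and 36.5%) differed by -1.13 and then 0.05, and USP35 and USP38 (61.3% and 40.1%) by -1.02 and then 0.22. USP5 and USP13 (57.7% and 44.5%) differed by -1.03 and then -0.23. For USP12 and USP46, with transcript GC contents of 38.7% and 40.6%, the difference was 0.76 and then 0.61. Their coding sequences are further apart, with 38.6% and 43.0%. With the trend on the coding sequence instead, USP12 was at 0.34 and USP46 at -0.11. For USP25 and USP28 (39.99% and 43.6%) it was 0.64 and then 0.28.

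**Figure D4:**
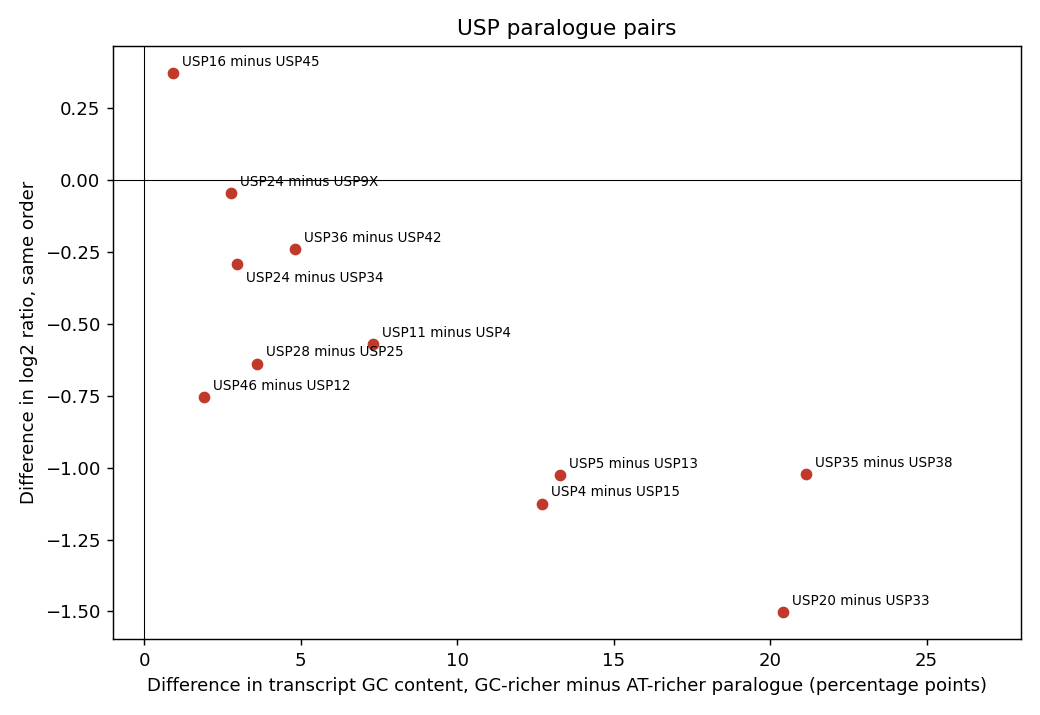
Difference in log2 ratio of FPKM + 1 (overexpression over control) between 2 USP paralogues, against their difference in transcript GC content in percentage points, each taken as the GC-richer minus the AT-richer gene, for 11 pairs. 10 points lie below 0 and 1, USP16 minus USP45, above it; USP20 minus USP33 is the lowest at -1.503.

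The promoters were not split in this way. Promoter sequences of 300 bases, 250 before the start and 50 after it, were available from RefSeq on GRCh38.p14 for 38 members, 51 promoters in all, and their median GC content was 68.3%, against 58.7% over all 35116 promoters. Across the 32 members that also passed the limit, promoter GC content and log2 ratio had a Spearman correlation of 0.122 and a Pearson's r of 0.141. Of the 51 promoters, 37 (72.5%) held a GC box (GGGCGG on either strand), against 44.95% of all promoters, and 12 (23.5%) the ETS core CCGGAAG, against 10.3%. A CCAAT box was in 25.5% against 34.6%, and a TATAAA in 5.88% against 11.5%; these letters were searched on both strands and none of the 4 motifs contains another. A match describes letters and not a bound factor. The comparison set of all promoters was not filtered by gene type or level, and its median GC content was lower. The part of this in the motif shares was not tested. The promoters of the members with the highest and the lowest log2 ratio, USP1 and USP11, are shown with these motifs in capitals, the first at chr1:62436145-62436444 and the second at chrX:47232759-47233058, both on the plus strand.
USP1: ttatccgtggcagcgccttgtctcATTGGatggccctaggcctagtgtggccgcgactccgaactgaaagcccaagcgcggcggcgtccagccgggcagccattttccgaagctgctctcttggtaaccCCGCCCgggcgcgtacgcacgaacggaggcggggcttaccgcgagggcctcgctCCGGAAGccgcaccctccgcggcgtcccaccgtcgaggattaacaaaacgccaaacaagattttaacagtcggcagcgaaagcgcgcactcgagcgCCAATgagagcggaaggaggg
USP11: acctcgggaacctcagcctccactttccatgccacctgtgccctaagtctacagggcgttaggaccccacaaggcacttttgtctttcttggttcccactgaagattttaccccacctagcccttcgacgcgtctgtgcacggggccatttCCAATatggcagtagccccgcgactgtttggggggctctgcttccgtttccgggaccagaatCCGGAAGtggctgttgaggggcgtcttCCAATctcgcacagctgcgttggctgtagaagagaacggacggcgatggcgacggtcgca

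Both promoters are GC-rich, 64.3% for USP1 and 58.3% for USP11, although the transcripts differ, with 40.9% and 56.5%. Both hold 2 CCAAT boxes and 1 ETS core, and 1 GC box is in that of USP1.

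Of 13 partner genes of USPs, all past the limit, 2 reached 2-fold upwards (STAM2 and G3BP2) and 0 downwards, beside 11.9% and 0.444% of all genes. STAM2 and G3BP2 lie in the AT-richest of the 4 bins, where 41.5% of all genes reached 2-fold upwards. The partners' median log2 ratio was 0.42. With the trends subtracted the median was -0.080, 0 reached 2-fold upwards and 1 downwards: EIF3F, a translation initiation factor subunit, had an FPKM of 30.8 in the overexpression library and 46.9 in the control, a log2 ratio of -0.59 as deposited and -1.34 with the trends subtracted. The transcript used for its trend is mostly 3′ UTR (5840 of 7540 bases), with a GC content of 40.6% against 56.5% in its coding sequence, and its values did not fall on whole fragments; the part of that choice in the value was not tested. STAM2 had a control FPKM under 1.

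Of 37 other deubiquitinases with values, among them the OTU, UCH, Josephin, MINDY and JAMM families and the USP-type genes CYLD, USPL1 and PAN2, 31 passed the limit, 10 reached 2-fold upwards and 0 downwards, and the median log2 ratio was 0.56. Beside these stand the 11.9% and 0.444% of all genes, and 4 of the 10 had a control FPKM under 1 and passed through the overexpression library alone. All 10 lie in the AT-richest of the 4 bins, where 41.5% of all genes reached 2-fold upwards. With the trends subtracted 1 was at 2-fold and the median was 0.15, against 0.096 over all genes. YOD1, an OTU enzyme that works with the segregase VCP, had an FPKM of 5.10 in the overexpression library and 0.675 in the control (ratio 7.55, 5.87 to 9.84). BRCC3, the deubiquitinase of the BRCA1-A complex, had 11.1 and 2.55 (ratio 4.34, 3.58 to 5.31) and was the 1 at 2-fold with the trends subtracted (1.13). OTUD6B had 7.42 and 1.64, and MYSM1, a histone H2A deubiquitinase, had 5.54 and 1.30. UCHL5, of the proteasome, had 5.98 and 1.77, and ZUP1, which cuts long ubiquitin chains at sites of DNA damage, had 3.21 and 0.889. On the GC-rich side OTUB1 had 18.4 and 26.4 (ratio 0.696, 0.652 to 0.743). CYLD (log2 ratio 0.80), USPL1 (0.74) and PAN2 (-0.10) did not reach 2-fold.

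Of the 6 ubiquitin and ubiquitin-activating genes, 1 reached 2-fold upwards and 0 downwards, beside 11.9% and 0.444% of all genes. With the trends subtracted 0 of the 6 reached 2-fold. UBA6, the second ubiquitin-activating enzyme, had an FPKM of 6.67 in the overexpression library and 1.18 in the control (ratio 5.66, 4.89 to 6.58), with a GC content of 35.7%. UBA1, the main one, had 74.0 and 104.1 (ratio 0.711, 0.691 to 0.733), with a GC content of 56.95%. RPS27A, which encodes ubiquitin fused to a ribosomal protein, had 168 and 147 (ratio 1.14, 1.11 to 1.18).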

How the data were processed

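RNA of 2 libraries was sequenced after poly(A) selection, per the labels' protocols. The deposited tables hold 1 value for each gene, read here as FPKM because value times merged exon length in GENCODE 29 falls on whole multiples of 1 step (tolerance 0.02 of a fragment) for 94.4% of genes in the overexpression library and 94.5% in the control. That step gave the depths and fragments per gene. HTSeq 0.6.0, HISAT2 2.1.0, Bowtie2 2.2.3 and GRCh38 are named in the submitters' processing notes; their roles, the annotation and the strand setting are not given in the sources used here. Genes that overlap or have near-identical copies (USP6 and USP32, USP18 and USP41, USP9X) are therefore uncertain, and FPKM per merged exon understates genes with long, little-used exons.

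The log2 ratio is that of FPKM + 1, which understates differences of low genes, for genes whose FPKM averaged 1 or more. The 95% intervals are exact, by Poisson counts (level) or the Clopper-Pearson method on the conditional share (ratio), and cover counting error only. No count model was used, since each group held 1 library. Trends were fitted by lowess (span 0.3) on GC content, then length, over all genes (statsmodels 0.14.6, Python 3.11.15). Where the GC content of the coding sequence was used, the fits were over protein-coding genes only. Each gene was represented by its longest coding transcript having a 3′ UTR, or where it had none by its longest transcript. The fits were tried on simulated data with a linear GC trend and no length trend. That trial does not cover a curved trend or a trend on length.

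Members and lists were chosen with earlier results of these data known. Full values are given by rule for members at 2-fold, the 6 most abundant, up to 3 per role group, the 4 lowest and paralogue pairs, and for up to 6 other deubiquitinases, 4 partners and 2 ubiquitin or activating genes with the largest absolute log2 ratio; the other members are named to account for all. OTUB1, CYLD, USPL1, PAN2, WDR48, WDR20, ATXN7L3, STAM, EIF3F and RPS27A were named beside them after their values were seen.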

Additional observations from a re-analysis of the deposited data

How the results depend on the processing

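No paired analysis was possible because neither group had a second library. The 7 members at 2-fold upwards were 3 by the trimmed mean of M values, 4 by median of ratios, 3 by the upper quartile, 14 with a pseudocount of 0.1, 11 with 0.5, 3 with an FPKM limit of 5, 17 at 1.5-fold, 0 at 4-fold, 26 by an interval above 1, 1 with both trends (GC content, length) subtracted, 1 with that of GC content only and 0 with GC content taken from the coding sequence. The 0 lower were 1 by the upper quartile, 1 at 1.5-fold and 9 by an interval below 1. Over all genes, 898 of 11907 reached 2-fold upwards by the trimmed mean and 981 of 11909 by median of ratios, against 1421 of 11945 as deposited. The median of 0.52 was 0.29 by the trimmed mean, 0.32 by median of ratios, 0.12 by the upper quartile, 0.31 without a filter, 0.21 with an FPKM limit of 5, 0.042 with both trends subtracted, 0.059 with GC content only and -0.088 with the coding sequence, a reversal. USP15 turned to -0.069 and USP45 to -0.053 with both trends, and to -0.15 and -0.18 with the coding sequence. With CYLD, USPL1 and PAN2, or without members sharing at least 10% of their exon bases, the counts were 7 and 6 higher and the medians 0.52 and 0.53. The coding sequence trend and the shared exon limit were chosen after the data were seen. Where a value moved, the cause was not tested. Depth limits the low members most, such as USP45 with 81 fragments in the control.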

Other observations

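Several genes carry a USP name without being members of the family, and none of those given here reached 2-fold on FPKM + 1. USP6NL, a GTPase-activating protein for RAB GTPases that shares no catalytic domain with the family, had an FPKM of 4.50 in the overexpression library and 2.90 in the control. USP46-AS1, a non-coding gene beside USP46, had 3.16 and 1.77, from 54 and 29 fragments. The non-coding USP2-AS1 had 28 fragments in the overexpression library and 30 in the control, USP27X-AS1 had 2 and 4, USP30-AS1 had 1 and 2, and USP12-AS2 had 0 in both.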
